A study of Glycine max with 4 samples.

Results

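Of 10 genes of soybean (Glycine max) that carry the names of fatty acid desaturases, 7 were detected in root and 3 were listed in none of the 4 root libraries. The 10 genes were chosen by identifier, out of 47973 genes listed in at least 1 library. They are 5 copies of FAD2, 3 copies of FAD3 and 2 stearoyl-ACP desaturases (SACPD). Roots of wild-type soybean (WT) gave 2 libraries, and roots of a transgenic soybean with suppressed GmHAD1-2 (named Ri by the submitters) gave the other 2. All plants, controls included, had grown for 12 days in nutrient solution with KH2PO4, given as 250 mM, a unit in doubt because such solutions usually hold micromolar phosphate. The cultivar, the construct and its promoter, the number of transgenic lines and the number of plants in a library are not stated in these sources. GmHAD1-2 and the markers of root cells could not be tied to an identifier, so neither the suppression nor the tissue was checked here. Total expected counts were 10077854 to 11070260 per library.

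Plant fatty acids are made in plastids while bound to acyl carrier protein (ACP). SACPD puts the first double bond into stearoyl-ACP there and so makes the precursor of oleic acid. FAD2 of the endoplasmic reticulum then turns oleic into linoleic acid on membrane lipids, and FAD3 turns linoleic into linolenic acid. In soybean, FAD2-1A and FAD2-1B are known as the seed-type FAD2 copies and the FAD2-2 genes as the constitutive ones. FAD3A and SACPD-C are likewise known for their part in seed oil, and soybean lines with mutations in these genes have altered oil. FAD3B, FAD3C and SACPD-B were set against them here as the less seed-bound copies. This division comes from published knowledge of the names and not from these libraries.

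The names were given with the identifiers. In the RefSeq table of assembly Glycine_max_v4.0 all 10 names were found as a symbol or synonym on the chromosome number that the identifier carries, although 0 of the 10 identifiers themselves occur in that table. FAD2-1A is Glyma.10G278000.Wm82.a2.v1 and FAD2-1B is Glyma.20G111000.Wm82.a2.v1. The FAD2-2 copies are Glyma.03G144500.Wm82.a2.v1 on chromosome 3 and, on chromosome 19, Glyma.19G147300.Wm82.a2.v1 and Glyma.19G147400.Wm82.a2.v1. RefSeq places FAD2-2A and FAD2-2B next to each other on chromosome 19, with 0 genes between them, but which identifier belongs to which symbol cannot be told from these sources, so the copies are called by identifier. FAD3A is Glyma.14G194300.Wm82.a2.v1, FAD3B is Glyma.02G227200.Wm82.a2.v1 and FAD3C is Glyma.18G062000.Wm82.a2.v1. SACPD-C is Glyma.14G121400.Wm82.a2.v1 and SACPD-B is Glyma.02G138100.Wm82.a2.v1.

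Levels are given as the authors' FPKM, fragments scaled by transcript length and by library depth, which allows genes of different length to be compared. The oleate desaturases showed the sharpest division between copies. Neither seed-type copy, FAD2-1A or FAD2-1B, was listed in any library. The tables hold only genes above 0, and their lowest listed expected count was 0.03 to 0.1 per library. The identifiers next in number on either side of FAD2-1A and of FAD2-1B were listed in all 4 libraries, with at least 520.55 expected counts, so the tables have no wider gap around these 2 genes. The FAD2-2 copy 19G147300 was also listed in 0 libraries. Of its neighbours by number, the next higher, 19G147400, was listed in all 4 libraries and the next lower in 0. Whether the authors' annotation held these 3 genes cannot be told from the tables.

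The FAD2-2 copy 03G144500 carried most of the FAD2 message. Its level was 290.91 and 210.15 FPKM in replicates 1 and 2 of WT and 202.98 and 411.7 FPKM in replicates 1 and 2 of Ri. Ri replicate 2 was the highest and Ri replicate 1 the lowest, so the WT values lay between those of Ri. Ranked by FPKM it was gene number 163, 275, 336 and 104 in that order of libraries, among 41921 to 44830 listed genes. The highest level of any desaturase examined was thus that of a single constitutive FAD2 copy, in each of the 4 libraries.

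The FAD2-2 copy 19G147400 was at 67.66, 39.27, 26.09 and 75.8 FPKM in WT replicates 1 and 2 and Ri replicates 1 and 2. The order of the libraries was the same as for 03G144500, with Ri replicate 2 highest, WT replicate 1 next and Ri replicate 1 lowest. Per length, 03G144500 exceeded 19G147400 by 4.30-fold and 5.35-fold in WT and by 7.78-fold and 5.43-fold in Ri. It made up 81.1% and 84.3% of the summed FAD2 level in WT and 88.6% and 84.5% in Ri. The expected counts of both copies were not whole in any library (within 0.005), as happens when fragments that match several genes are divided among them. Which genes shared these fragments is not given, so how far the split between the copies is uncertain cannot be told.

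**Figure D1:**
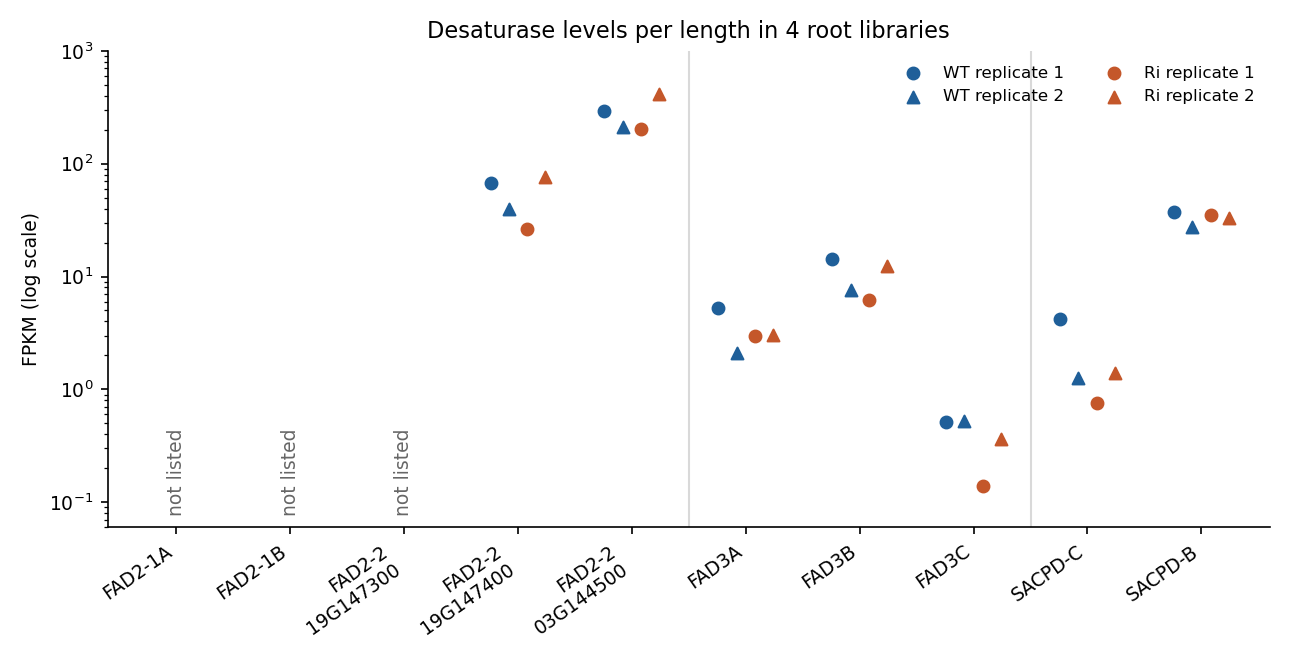
Level per length (FPKM, log scale) of the 10 desaturase genes in each library; circles are replicate 1 and triangles replicate 2, blue is WT and orange is Ri. FAD2-1A, FAD2-1B and the FAD2-2 copy 19G147300 were not listed, the FAD2-2 copy 03G144500 lies between 202.98 and 411.7 FPKM, and FAD3C lies below 1 FPKM in all 4 libraries.

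The linoleate desaturases were far lower than FAD2 and were led by FAD3B. FAD3B was at 14.21 and 7.63 FPKM in WT and at 6.24 and 12.51 FPKM in Ri. WT replicate 1 and Ri replicate 2 were the high libraries, as for the FAD2-2 copies, and the genotypes overlapped. FAD3A was at 5.22 and 2.09 FPKM in WT and at 2.96 and 3.05 FPKM in Ri. Its Ri values lay close together between the WT values, unlike those of FAD3B. FAD3A was thus listed in all root libraries, at 19.2% to 31.7% of the summed FAD3 level, while FAD3B held 66.8% to 78.6%. The expected counts of FAD3A and of FAD3B were whole in 0 of 4 libraries (within 0.005). Which genes shared these fragments is not given, so how far the split between FAD3A and FAD3B is uncertain cannot be told. FAD3A rests on few counts, from 33.21 in WT replicate 2 to 83.24 in WT replicate 1.

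FAD3C was the least abundant of the detected desaturases. It was at 0.51 and 0.53 FPKM in WT and at 0.14 and 0.36 FPKM in Ri. The genotypes did not overlap, with Ri the lower, but the Ri values rest on 2 and 5.54 expected counts against 7.85 and 6.54 in WT. Pooled by genotype these are 15 rounded counts in WT and 8 in Ri, a ratio of Ri to WT of 0.536 with an exact 95% binomial interval of 0.197 to 1.35, which covers counting error only. Of the 7 detected genes FAD3C was the only one without overlap, in FPKM as in CPM (counts scaled to library size). Among all 34151 genes tested, which leave out FAD3C, CPM did not overlap for 36.2%. A difference between the genotypes was not detectable at this depth. The deposited length of FAD3C, which has 3 listed transcripts, ran from 1160 to 1445 bases between libraries, so its FPKM also moves with the length. FAD3C did not pass the filter on low counts and was not tested.

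The stearoyl-ACP desaturases were led by SACPD-B. SACPD-B was at 36.97 and 27.72 FPKM in WT and at 35.05 and 33.17 FPKM in Ri. Its highest library was 1.33-fold above its lowest, the narrowest range of the 7 detected genes. SACPD-C was at 4.18 and 1.26 FPKM in WT and at 0.75 and 1.41 FPKM in Ri. Its highest library, WT replicate 1, was 5.57-fold above the lowest, Ri replicate 1, which was the widest range of the 7. WT replicate 1 stood apart here, and the other 3 libraries lay between 0.75 and 1.41 FPKM. SACPD-C gave 10.2%, 4.35%, 2.09% and 4.08% of the summed SACPD level in WT replicates 1 and 2 and Ri replicates 1 and 2. Its expected counts were whole in all 4 libraries (within 0.005), at 83, 25, 14 and 29, whereas those of SACPD-B were whole in 0 of 4.

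Ordered by level, the detected genes ran from the FAD2-2 copy 03G144500 through 19G147400, SACPD-B, FAD3B, FAD3A and SACPD-C to FAD3C. This order held in both WT libraries and in Ri replicate 2. In Ri replicate 1 SACPD-B, at 35.05 FPKM, lay above 19G147400, at 26.09. The ranges over the 4 libraries of 19G147400 and SACPD-B overlapped, as did those of FAD3A and SACPD-C, so these pairs were compared within each library. There FAD3A was above SACPD-C in all 4 libraries, and 19G147400 above SACPD-B in 3 of 4. The other neighbours in the order had ranges that did not overlap.

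Summed over seed-type copies (FAD2-1A, FAD2-1B, FAD3A and SACPD-C), the level was 9.40 and 3.35 FPKM in WT and 3.71 and 4.46 FPKM in Ri. The other copies (the FAD2-2 copies, FAD3B, FAD3C and SACPD-B) summed to 410.26 and 285.3 FPKM in WT and to 270.5 and 533.54 FPKM in Ri. The seed-type share of the summed level of the 10 genes was thus 2.24% and 1.16% in WT and 1.35% and 0.829% in Ri, with a mean of 1.396% ± 0.603 (SD, n = 4). The share differed by family. It was 24.4% ± 5.77 (SD, n = 4) for FAD3 and 5.17% ± 3.47 (SD, n = 4) for SACPD. For FAD2, whose seed-type copies were not listed, it was 0 with unlisted genes taken as 0. Whether the authors' annotation held FAD2-1A and FAD2-1B cannot be told. That 0 and the share over the 10 genes depend on it. The FAD3 share carries the uncertain split between copies given above. The 10 genes were chosen with results of these libraries known, so these sums carry no test.

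Summed over the copies examined here, the families differed in level. Other desaturase genes of soybean were not analysed here, so these sums are not the whole of an enzyme step. Summed FAD2 was 358.57 and 249.42 FPKM in WT and 229.07 and 487.5 FPKM in Ri. Summed SACPD was 41.15 and 28.98 FPKM in WT and 35.8 and 34.58 FPKM in Ri. Summed FAD3 was 19.94 and 10.25 FPKM in WT and 9.34 and 15.92 FPKM in Ri. FAD2 thus stood 17.98-fold to 30.6-fold above FAD3 and 6.40-fold to 14.1-fold above SACPD over the 4 libraries. The ratio of FAD2 to SACPD had both its extremes in Ri, at 6.40 in replicate 1 and 14.1 in replicate 2, against 8.71 and 8.61 in WT.

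**Figure D2:**
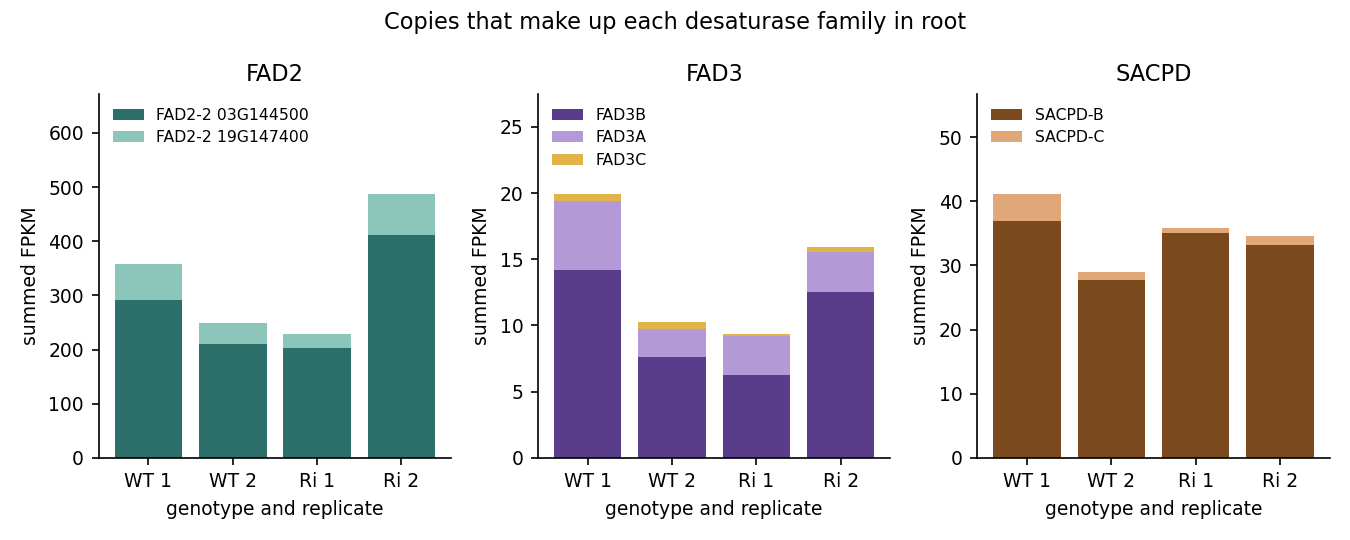
Summed level per length (FPKM, linear axis from 0) of each desaturase family in each library, divided into its detected copies. The FAD2-2 copy 03G144500 makes up at least 81.1% of FAD2 in each library, FAD3B at least 66.8% of FAD3, and SACPD-C at most 10.2% of SACPD.

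Replicates of 1 genotype were compared in CPM, counts scaled to library size by the TMM method. The counting interval of their ratio excluded 1 for all 6 tested genes in WT and for 3 of the 6 in Ri, the FAD2-2 copies and FAD3B. That interval covers counting error only and was not computed over all genes, so these counts do not set the desaturases apart. For the FAD2-2 copy 19G147400, Ri replicate 2 was 2.76-fold above Ri replicate 1 (exact 95% binomial interval 2.49 to 3.06, counting error only). A larger difference between the Ri replicates was seen in 2.42% of the 20250 genes with at least 8 CPM on average. Its WT replicates differed by 1.65-fold (1.51 to 1.80) in the other direction, with replicate 1 higher. For the FAD2-2 copy 03G144500 the ratio of replicate 2 to replicate 1 was 1.92 (1.85 to 2.00) in Ri and 0.754 (0.723 to 0.787) in WT. FAD3B had ratios of 1.89 (1.47 to 2.44) in Ri and 0.561 (0.446 to 0.703) in WT. Among the same 20250 genes, a larger difference between replicates was seen for 2.48% in WT in the case of 19G147400. For 03G144500 the shares were 14.1% in WT and 7.03% in Ri, for FAD3B 1.53% and 7.99%, and for SACPD-B 19.7% and 70.8%, so these genes ran from unusually unequal to ordinary. FAD3A and SACPD-C lie below 8 CPM on average, so they are not among these genes and their lower counts make the shares less comparable. For FAD3A the shares were 0.346% in WT and 94.0% in Ri, and for SACPD-C 0.178% and 15.3%.

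SACPD-B differed least between the WT replicates and FAD3A least between the Ri replicates. SACPD-B had a ratio of replicate 2 to replicate 1 of 0.897 (0.801 to 1.005) in Ri and 0.782 (0.696 to 0.879) in WT. For FAD3A the ratio was 0.980 (0.641 to 1.505) in Ri and 0.416 (0.269 to 0.630) in WT. For SACPD-C it was 1.79 (0.914 to 3.66) in Ri and 0.315 (0.193 to 0.498) in WT. In WT replicate 1 was thus the higher library for all 6 tested genes, while in Ri replicate 2 was the higher for both FAD2-2 copies, FAD3B and SACPD-C, the last with an interval that includes 1. Opposite directions in WT and Ri were not particular to these genes. Over all genes of at least 8 CPM on average, the replicate difference of WT correlated at -0.318 with that of Ri. No growth, library or sequencing batch was given for these libraries, and what made replicates differ was not tested.

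**Figure D3:**
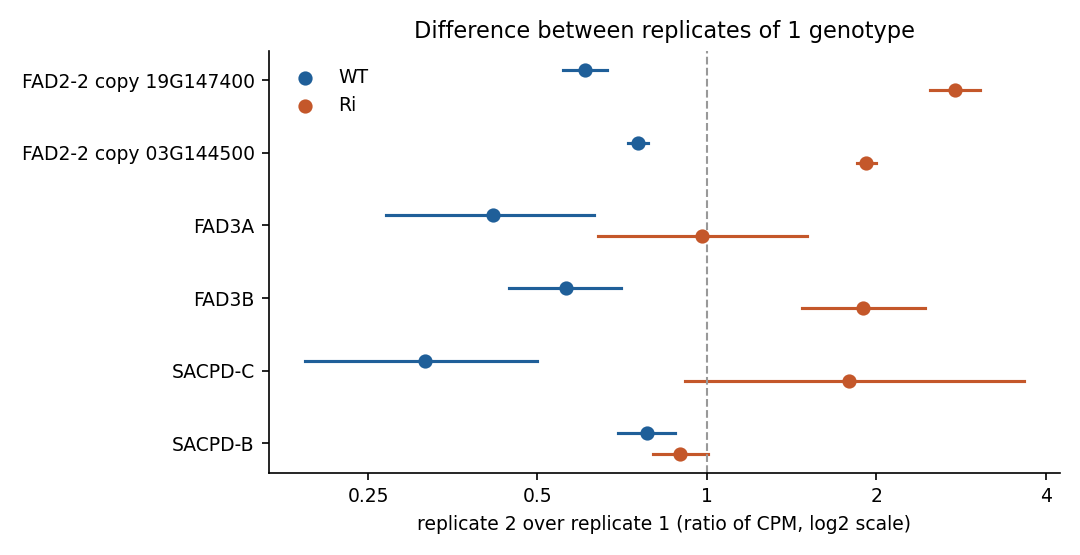
Ratio of replicate 2 to replicate 1 within WT (blue) and within Ri (orange), from TMM-scaled CPM on a log2 axis, for the 6 tested desaturase genes; bars are exact 95% binomial intervals, counting error only. The intervals of both FAD2-2 copies and of FAD3B lie below 1 in WT and above 1 in Ri.

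The comparison of Ri with WT asked whether desaturase message differs in the line labelled as suppressed for GmHAD1-2. None of the 6 tested genes passed the threshold. With edgeR's quasi-likelihood test and a Benjamini-Hochberg adjusted p under 0.05 over all genes, 0 of 6 were called, beside 0.117% of the 34151 genes tested. At an unadjusted p under 0.05 the number was again 0 of 6, beside 6.25% of all genes tested. DESeq2, limma-voom and limma on log2 FPKM also called 0 of the 6, with 0 at an unadjusted p under 0.05 in each. In 0 of the 6 genes did both values of one genotype lie outside those of the other, in FPKM as in CPM, beside 36.2% of all genes tested in CPM. The untested FAD3C was without overlap. In these whole-root samples, fewer cells that express a gene and less message per cell cannot be told apart. The libraries of a genotype are called biological replicates in the design text.

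For the FAD2-2 copies the estimates had opposite signs. The copy 03G144500 had means of 250.5 FPKM ± 57.1 (SD, n = 2) in WT and 307.3 FPKM ± 148 (SD, n = 2) in Ri. Ri over WT gave a log2 fold change of 0.28 (standard error 0.38), a 95% interval of -0.64 to 1.20 and an edgeR adjusted p of 0.944. The interval includes a 2.30-fold higher level in Ri as well as a level of 0.642 times that of WT. The copy 19G147400 had means of 53.5 FPKM ± 20.1 (SD, n = 2) in WT and 50.9 FPKM ± 35.2 (SD, n = 2) in Ri, with a log2 fold change of -0.09, a 95% interval of -1.36 to 1.18 and an edgeR adjusted p of 0.988. Both estimates are small beside the spread between the Ri replicates.

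For FAD3A and FAD3B, the FAD3 genes that were tested, the values of the genotypes overlapped. For FAD3A the wide spread was that of the WT replicates only. FAD3A had means of 3.65 FPKM ± 2.21 (SD, n = 2) in WT and 3.005 FPKM ± 0.0636 (SD, n = 2) in Ri. The log2 fold change of FAD3A was -0.28, its 95% interval ran from -1.37 to 0.80 and its edgeR adjusted p was 0.946. FAD3B had means of 10.9 FPKM ± 4.65 (SD, n = 2) in WT and 9.38 FPKM ± 4.43 (SD, n = 2) in Ri. The log2 fold change of FAD3B was -0.22, its 95% interval ran from -1.20 to 0.75 and its edgeR adjusted p was 0.954.

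Of the 6 tested genes SACPD-C had the largest estimate and SACPD-B the narrowest interval. SACPD-C had means of 2.72 FPKM ± 2.06 (SD, n = 2) in WT and 1.08 FPKM ± 0.467 (SD, n = 2) in Ri. The log2 fold change of SACPD-C was -1.32 (standard error 0.63), its 95% interval ran from -2.84 to 0.20, and edgeR gave an unadjusted p of 0.0780 and an adjusted p of 0.833. Of all genes tested, 3.004% had a larger change in either direction. The estimate rests on WT replicate 1, without which it was -0.27. SACPD-B had means of 32.3 FPKM ± 6.54 (SD, n = 2) in WT and 34.1 FPKM ± 1.33 (SD, n = 2) in Ri, a log2 fold change of 0.08 with a 95% interval of -0.41 to 0.56 and an edgeR adjusted p of 0.969. Its interval runs from 0.754 to 1.47 times the WT level, so for SACPD-B a 2-fold difference in either direction lies outside it.

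Over the 6 tested genes the median log2 fold change was -0.16, beside 0.02 over all genes tested, with 4 estimates below 0 and 2 above. The median size of the change was 0.25 on the log2 scale, beside 0.22 over all genes tested. Leaving out 1 library at a time turned the sign of 7 of 24 estimates. The sign turned for 19G147400, FAD3A and FAD3B without WT replicate 1, for 19G147400 and FAD3B without Ri replicate 1, for 03G144500 without Ri replicate 2 and for SACPD-B without WT replicate 2. The sign of SACPD-C stayed negative in these fits.

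**Figure D4:**
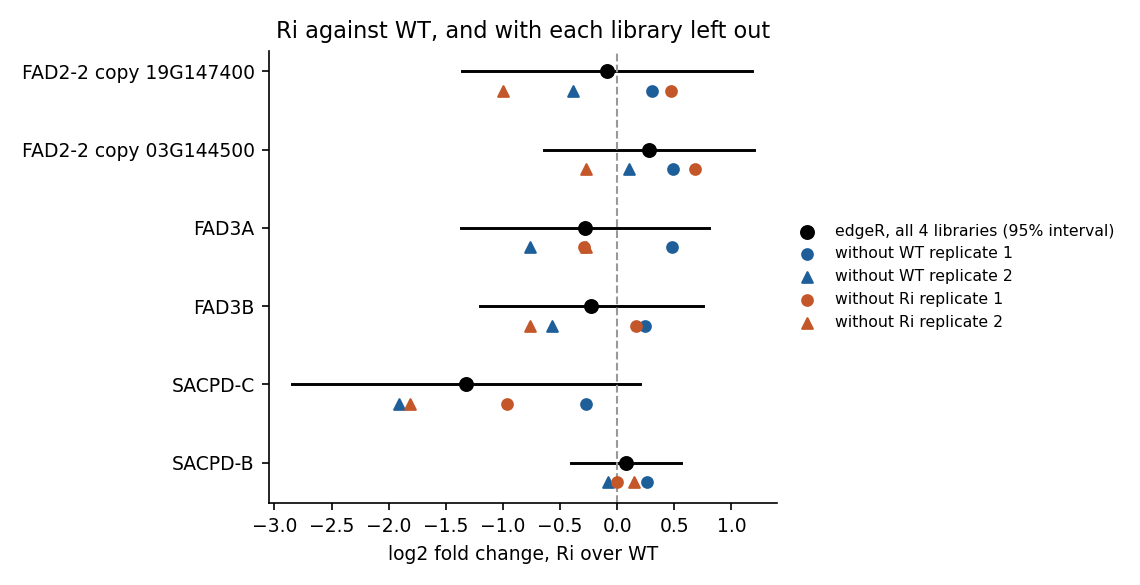
Log2 fold change of Ri over WT for the 6 tested desaturase genes; black points with lines are the estimates from all 4 libraries with 95% intervals, and coloured points are the estimates with 1 library left out. All 6 intervals include 0, and only the estimates of SACPD-C keep their sign whichever library is left out.

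The profile of the FAD2-2 copy 03G144500 over the 4 libraries was compared with those of 20249 other genes of at least 8 CPM, as the root mean square difference of centred log2 CPM. The 2 most similar genes differed from it by 0.0239 and 0.0246, and no name could be tied to them. Among the desaturases FAD3B was the most similar, at 0.268 and rank 2467, followed by 19G147400 at 0.305 and rank 3786. SACPD-B stood at 0.394 and rank 8031. Each profile rests on the same 4 libraries, and 2466 genes were closer to 03G144500 than FAD3B was.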

How the data were processed

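Messenger RNA of 4 soybean root libraries was analysed from 1 table per library. Per the labels' protocols, total RNA came from a Trizol extraction and the libraries from a BGI RNA-Seq kit; per the submitters' processing notes, Bowtie2, HISAT and RSEM were used. What each did, its version and any strand setting are not stated in these sources. Per the file headers, the deposited values are expected counts (estimated fragments, not normalized) and FPKM computed by the authors from count, length and depth. The deposited lengths are in bases. Unlisted genes were taken as 0.

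Expected counts were rounded and tested with edgeR 4.0.16 (R 4.3.3; TMM scaling, default filter, robust quasi-likelihood F-test, genotype as the only term, 34151 genes, Benjamini-Hochberg adjusted p under 0.05), with DESeq2 1.42.0 and limma 3.58.1 as alternatives. Standard errors are the log2 fold change over the square root of F, and 95% intervals use the fit's total degrees of freedom. The CPM profile comparison used an offset of 0.5. The edgeR fit was tested on simulated data. The members, their division into seed-type and other copies and the tests were chosen with earlier results of these data known. The 10 members are all named, and other genes only by profile likeness to the most abundant member. Lists of other fatty acid genes and of cell type markers, defined by product name, were not run, because no table ties the identifiers to products. Replicates were not paired by number, because no pairing by number is stated. Over genes of at least 8 CPM on average, the WT difference between replicates correlated at -0.318 with the Ri difference.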

Additional observations from a re-analysis of the deposited data

How the results depend on the processing

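No alternative called any of the 6 tested desaturase genes. In the 11 alternatives with all 4 libraries, 66 of 66 fold changes of these genes kept their sign. The extremes of SACPD-C there were -1.33 without a filter and -0.74 with limma on log2(FPKM + 1). With 1 library left out the log2 fold changes ran from -1.003 to 0.47 for 19G147400, from -0.27 to 0.68 for 03G144500, from -0.77 to 0.48 for FAD3A, from -0.77 to 0.25 for FAD3B, from -1.91 to -0.27 for SACPD-C and from -0.079 to 0.26 for SACPD-B. The signs that turned were those of 19G147400 (0.31 without WT replicate 1 and 0.47 without Ri replicate 1), FAD3A (0.48) and FAD3B (0.25) without WT replicate 1, FAD3B (0.17) without Ri replicate 1, 03G144500 (-0.27) without Ri replicate 2 and SACPD-B (-0.079) without WT replicate 2. Each fit with 1 library left out leaves 1 library in a genotype, so only effect sizes are given for these fits. The absence of unadjusted p-values under 0.05, given above for the main edgeR fit, DESeq2 and limma, was read in fits to all 4 libraries. With no filter FAD3C had a log2 fold change of -0.91 and an edgeR adjusted p of 0.896.

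Over all genes edgeR called 40, which became 0 with library totals only, 12 with upper-quartile factors, 164 with no filter, 316 in DESeq2, 0 in limma-voom, 0 and 5 in limma on log2(FPKM + 1) and log2(FPKM + 0.1), and 0 to 1994 with 1 library left out. The cause was not tested. A replicate block (replicate number as a second term) gave 107 calls in edgeR, and with a crossed replicate block, chosen after the negative correlation of the numbers was seen, 68; under neither block was a desaturase called, and SACPD-C had an unadjusted p of 0.0210 in the crossed one. The seed-type share of the 10 genes' summed level was 1.11% to 1.58%, that of FAD3A 21.9% to 26.1% and that of SACPD-C 3.51% to 6.19% with 1 library left out, and each moved by less than the SD between libraries on another length scale. Depth limits FAD3C. With 2 libraries a genotype, a 2-fold difference in at least 1 direction lies within the interval of 5 of the 6 tested genes. Only for 19G147400 does the interval include 2-fold in both directions, from 0.391 to 2.27 times the WT level.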
